A study of Mus musculus with 20 samples.

Results

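The Myc family comprises the genes of the transcription factors MYC (Myc), N-MYC (Mycn) and L-MYC (Mycl) and of their common partner MAX (Max). The peaks considered here are all regions of open chromatin in a merged ATAC-seq peak list that overlap 1 of these 4 genes or lie within 200000 bp of it on either side. They number 144 of the 102373 listed peaks: 32 for Myc, 23 for Mycn, 41 for Mycl and 48 for Max. No peak was shared between 2 genes.

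Accessible DNA was marked by a transposase and sequenced (ATAC-seq) in ZHBTc4 cells, a mouse embryonic stem (ES) cell line in which doxycycline (dox) shuts off Pou5f1, the gene of the pluripotency factor OCT4. All cells also carried YPet fused to a mitotic degron (MD) as a cell cycle reporter, and OCT4 was supplied from a lentiviral construct, as SNAP-MD-OCT4, which is degraded around mitosis, or as SNAP-MD*-OCT4, whose degron is inactive. The 16 libraries of 8 groups came from each of the 2 constructs after 40 h of dox, stained with Hoechst and sorted into 4 phases of the cell cycle (late S/G2, S, late G1 and early G1), with 2 replicates a group. A further 4 libraries came from unsorted cells of both constructs without dox, and their peaks are not part of the merge according to the methods of the study. Only the merged coordinates were analysed here: there is no value per library, so a peak found in 1 phase and a peak found in every phase count alike, the depth is unknown, and neither replicate error nor a comparison of the constructs or phases can be given. The 95% Wilson intervals below cover counting error only and treat peaks as independent.

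MYC, N-MYC and L-MYC are basic helix-loop-helix leucine zipper proteins that bind DNA as heterodimers with MAX, at a short palindrome called the E-box (CACGTG), and activate genes of growth and metabolism. MAX also pairs with repressors of the MXD group and with MNT and MGA, which use the same E-box. In ES cells Myc and Mycn support self-renewal and proliferation, and Myc lies downstream of the LIF-STAT3 and WNT pathways. Regulatory elements of Myc in many tissues are spread over the long gene-free intervals around it, which hold the non-coding RNA gene Pvt1.

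Of 10 marker genes of the labelled cell type, ES cells, 9 had a listed peak at most 1000 bp from a TSS of a protein-coding transcript, among them Pou5f1, Sox2, Klf4 and Esrrb. The exception was Nanog, whose nearest peak was 1402 bp away. Among all 21938 protein-coding genes the share was 69.1%. Such a peak does not measure expression, and in these cells Pou5f1 expression is under a Tet-Off promoter that dox shuts off. Markers of other cell types were not counted, so these shares cannot check the cell type.

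The sequences that follow show the DNA at the starts of Myc, Mycn and Max and at the single peaks on which the descriptions below turn. They were read from the GRCm38 genome of RefSeq, 5′ to 3′, and the gene starts are those of GENCODE M21. First stand the 120 bases directly upstream of the annotated transcription start site (TSS) of each of these genes, on the strand of the gene, all inside a listed peak, with consensus matches in capitals (E2F in Mycn, an E-box in Max, none in Myc).
Myc (chr15:61985271-61985390, plus strand): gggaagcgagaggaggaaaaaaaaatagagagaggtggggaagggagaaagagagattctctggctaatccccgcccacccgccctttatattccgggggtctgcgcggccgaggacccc
Mycn (chr12:12941915-12942034, minus strand): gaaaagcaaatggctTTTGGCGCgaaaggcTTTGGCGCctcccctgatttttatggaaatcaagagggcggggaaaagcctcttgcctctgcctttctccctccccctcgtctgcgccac
Max (chr12:76962202-76962321, minus strand): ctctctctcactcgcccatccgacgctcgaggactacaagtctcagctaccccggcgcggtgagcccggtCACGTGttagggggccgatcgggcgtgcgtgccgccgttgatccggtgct

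The next lines show single consensus matches (capitals) with the bases around them. They are the CTCF match in the only peak upstream of Myc, the E2F match just inside Myc, the second E-box upstream of Max, and the matches to the OCT4 motifs in the family.
Myc, CTCF (chr15:61983423-61983452, plus strand): ctctgtggCCAGTAGAGGGCACacttactt
Myc, E2F (chr15:61985469-61985498, minus strand): cctcccttcttTTTCCCGCcaagcgtcggc
Max, E-box (chr12:76962509-76962538, plus strand): gggaagacaggaCACGTGgagggagctggg
Mycn, OCT4::SOX2, far downstream (chr12:12803827-12803855, plus strand): tgacttcATTTGCATGACAGTCtcctcta
Mycn, OCT4::SOX2, nearer (chr12:12819982-12820010, minus strand): catgataGTTTGAATGACAATGatcccct
Mycn, OCT (chr12:12803823-12803852, minus strand): aggagactgtcATGCAAATgaagtcattat
Mycl flank, OCT, in an exon of Hpcal4 (chr4:123183454-123183483, plus strand): aggcgggtcttATGCAAATcgtgtcgcctt
Max flank, OCT, near an alternative start of Fntb (chr12:76837239-76837268, minus strand): ctcggttcgttATGCAAATaataaaaaaga

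Each of the 4 genes had a listed peak at its promoter, and the promoter peaks differed in width and layout. A promoter-proximal peak is one at most 1000 bp from a TSS, and a distal peak is any other. The Myc gene (ENSMUSG00000022346.15, chr15:61985391-61990374, plus strand) carried a peak of 965 bp, from 527 bp upstream to 437 bp downstream of its annotated 5′ end, which covered 3 of its 6 annotated TSS positions. A separate peak of 449 bp began 1412 bp into the gene and covered 1 further TSS, with 231 bases in an intron and 218 in untranslated exon. Both were rich in GC, at 60.8% and 63.0%, against a median of 57.4% for all promoter-proximal peaks.

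Mycn (ENSMUSG00000037169.15, chr12:12936093-12941914, minus strand) likewise had a pair of promoter peaks. The peak over the TSS was 543 bp wide and held both E2F matches shown above, and the other was 598 bp wide and began 327 bp upstream. E2F proteins are regulators of genes of the G1 to S transition. A further peak of 816 bp lay wholly in an intron, 2704 bp into the gene. Mycl (ENSMUSG00000028654.13, chr4:122995652-123002485, plus strand) had the widest peak of the family, 2014 bp, which ran from 298 bp upstream to 1715 bp into the gene and included 496 coding bases. It covered 3 of 5 annotated TSS positions and held a match each to CTCF, an E-box and KLF. A second Mycl peak of 577 bp lay 5153 bp downstream of the TSS, entirely in exon outside the coding sequence. In Max (ENSMUSG00000059436.13, chr12:76937269-76962201, minus strand) 1 peak of 1219 bp reached from 739 bp upstream to 479 bp into the gene and covered 4 of 7 TSS positions. It held 2 E-boxes, both upstream of the annotated 5′ end, the first of them in the 120 bases shown. Of the 6 peaks at the members' own promoters, the Max and Mycl peaks were the ones with an E-box. Max also had intronic peaks of 168 bp and 707 bp, at 10251 bp and 16825 bp into the gene.

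**Figure D1:**
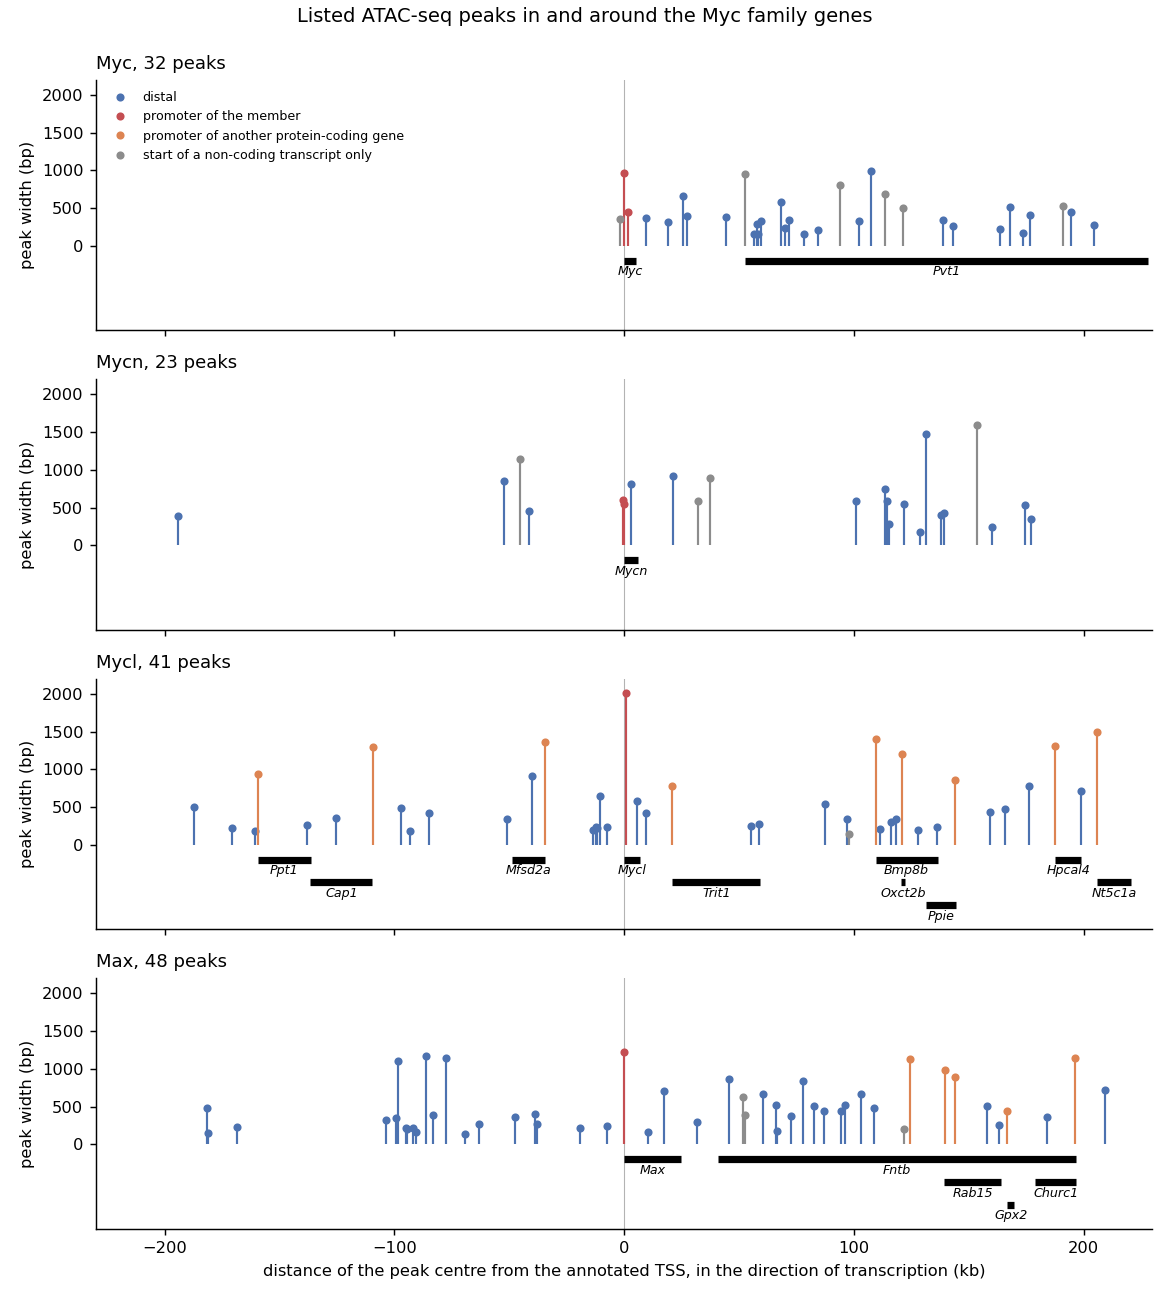
Width in bp of each listed peak (stem and point) against the distance of its centre from the annotated TSS of Myc, Mycn, Mycl or Max, in kb, with upstream to the left. Colours give the class of the peak, black bars are protein-coding genes and Pvt1 (bars are cut at the edges of the plot), and the Myc panel shows 1 peak upstream of the gene but 29 downstream.

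The number of peaks around a gene was set against the same count for every protein-coding gene, whose median was 29 and whose middle range ran from 15 to 44 (25th to 75th percentile). The percentile of a gene is the share of the 21938 genes with fewer peaks, ties counted in equal parts. Max stood at 80.5, Mycl at 70.3, Myc at 55.1 and Mycn at 39.0. Part of such a count comes from the promoters of neighbouring genes: 9 other protein-coding genes lay in the window of Mycl and 4 in that of Max, but none in those of Myc and Mycn. Against the 1977 genes with at most 1 such neighbour, whose median was 11 peaks, Myc stood at the 89.5th percentile and Mycn at the 80.0th. Compared in the same way, with genes whose number of neighbours differed by at most 1 from its own, Mycl stood at 68.7 (3395 genes, median 32) and Max at 91.3 (4903 genes, median 25). Myc and Mycn thus had middling or low counts among all genes and high counts among genes with at most 1 neighbour. With distal peaks only, the percentiles were 63.7 for Myc, 44.3 for Mycn, 77.9 for Mycl and 92.2 for Max.

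The peaks of Myc lay almost wholly on one side. Upstream of the gene there was 1 peak, a 356 bp region at chr15:61983283-61983638, 1753 bp from the TSS, which held an exact match to the motif of the insulator protein CTCF and lay near the start of the non-coding gene Gm37947. Beyond it no peak was listed for 447237 bp, until chr15:61535798-61536045. This stretch held 4 annotated genes, 0 of them protein-coding. It had 0 unknown bases, 32.4% of it was soft-masked as repeats and its GC content was 40.9%. Of the 102352 gaps between neighbouring peaks of the list, 437 (0.427%) were at least as long, and the median gap was 7796 bp. These were all gaps of the list, and gaps without protein-coding genes were not compared separately. The stretch held 44 matches to the OCT motif, 31 E-boxes, 3 CTCF, 6 OCT4::SOX2 and 99 TCF/LEF matches (motifs are described below). The whole of the 3 chromosomes that carry the family held 32804, 38279, 9545, 5530 and 78361, in the same order. An expected number for this length was not computed, so the counts do not show whether a motif is rare or common there.

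Downstream, 29 peaks were listed, of which 5 lay between Myc and Pvt1 and the rest in the body of Pvt1. Pvt1, a non-coding RNA gene (chr15:62037986-62378096), began 52595 bp from the Myc TSS, and 24 of its 26 peaks fell in the window. A peak of 956 bp covered its start. The run of neighbouring peaks (gaps of at most 10000 bp) with the most peaks comprised 16 peaks in 77418 bp, from 44173 to 121096 bp downstream. Its widest member, at 985 bp, was the widest peak in the Myc window (chr15:62092282-62093266, in an intron of Pvt1). Of these 16 peaks, 8 held a match to any of the motifs searched. By comparison, 16 of all 32 Myc peaks and 64 of all 144 family peaks held none, so this count does not set the run apart. The share with any match among all listed peaks was not counted. Among the 16 peaks of the run, 7 held a SOX motif (21.3% of all listed peaks) and 2 an E-box (10.4%), and these numbers are small. The farthest Myc peak, 272 bp wide, lay 204265 bp downstream with a TCF/LEF match. Myc ranked at the 8.5th percentile of all genes by upstream peaks and at the 91.2nd by downstream peaks. Percentiles by side among genes with a like number of neighbours are not given here. Genes with as few upstream peaks made up 10.8% and genes with as many downstream peaks 9.51%, while 17 genes, Myc included, had both (0.0775%), and 11 had the mirror pattern. This joint count was chosen after the Myc values had been seen and is a description of the list. Farther out the imbalance was not seen: 9 peaks were centred between 200 and 1000 kb upstream and 7 between 200 and 1000 kb downstream.

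**Figure D2:**
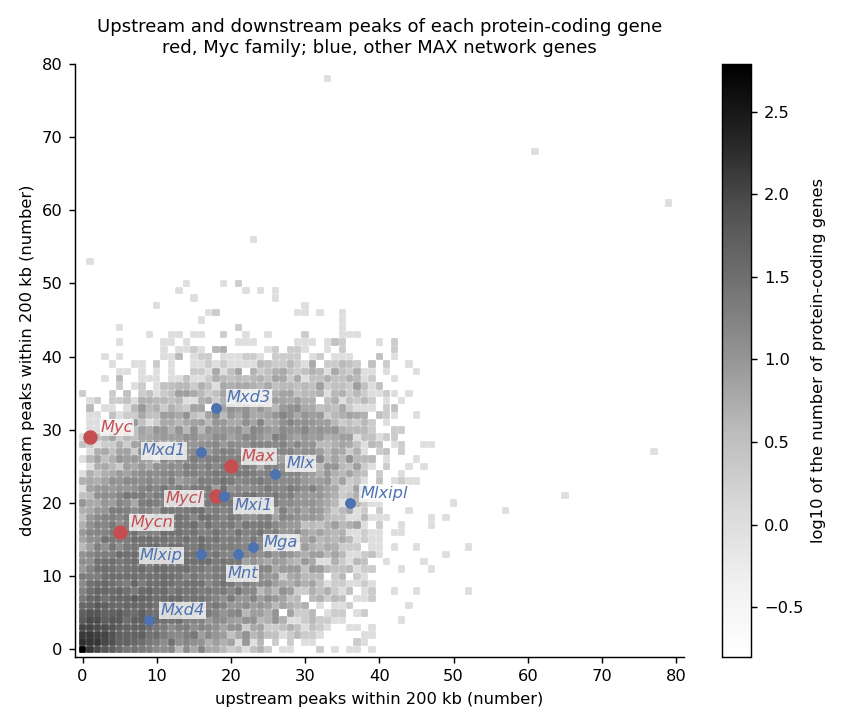
Number of peaks within 200 kb upstream (horizontal axis) and downstream (vertical axis) of every protein-coding gene, with grey shade for the log10 number of genes at each position. Myc lies at 1 upstream and 29 downstream peaks, near the upper left edge, whereas Max (20 and 25) and Mycl (18 and 21) lie well inside the cloud.

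Mycn had the fewest peaks of the 4 genes but wide ones, with a median width of 581 bp against 361 bp for Myc, 425 bp for Mycl, 417.5 bp for Max and 415 bp for the whole list. On its upstream side 5 peaks were listed, including the promoter peak that begins 327 bp from the TSS. The next 3 lay between 41012 and 51876 bp away, and the widest of them, at 1148 bp, covered an exon of the non-coding gene Gm35208. Then no peak was listed for 141369 bp, up to the last one at 194100 bp. Downstream, 16 peaks were listed, 13 of them centred between 100 and 200 kb from the TSS. Its largest run by number comprised 8 peaks in 26500 bp, between 113102 and 139168 bp downstream, in a stretch with no protein-coding gene. With the spelling of the consensus used, both OCT4::SOX2 matches of the whole family fell in this run. That spelling was settled after a first search, and other spellings matched 0 to 5 family peaks. The 2 matches lay in peaks of 396 bp (chr12:12803718-12804113) and 542 bp (chr12:12819683-12820224), and each had 2 mismatches, the most allowed. The run also held a peak of 1470 bp with 4 SOX matches, the second widest of Mycn. The widest, at 1589 bp, lay 152601 bp downstream at the start of Platr19, a long non-coding RNA gene whose name stands for pluripotency associated transcript. Another wide peak of 924 bp, 20768 bp downstream, carried an E-box. Nearest protein-coding gene was Mycn for 22 of the 23 peaks, and the farthest peak upstream was nearer to Ddx1.

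Around Mycl, a gene in a gene-rich neighbourhood, promoters of other genes were prominent. Of its 41 peaks, 9 lay at the promoters of other protein-coding genes, and Mycl was the nearest protein-coding gene of 8. The widest after the Mycl promoter were those of Nt5c1a (1491 bp, the farthest peak, 205115 bp downstream) and Bmp8b (1401 bp), a gene of the bone morphogenetic protein family. The peak at Hpcal4 (1311 bp) held the OCT match shown above. Closest to the gene, a run of 8 peaks spanned 23494 bp from 13375 bp upstream to beyond the end of the gene. Of these 8, 3 held an E-box, beside 10.4% of all listed peaks. Among the 3 was the Mycl promoter peak of 2014 bp, against a median of 415 bp for the whole list. The numbers are small, and peak width was not taken into account. CTCF matches were found in 8 of the 41 Mycl peaks, 1 of 32 for Myc, 0 of 23 for Mycn and 5 of 48 for Max, beside 13.0% of all listed peaks, and these numbers are small. Between 200 and 1000 kb upstream of Mycl no peak was listed, while 81 were listed at the same distances downstream. In that upstream interval 53.9% of bases were soft-masked and 2.42% unknown, against 32.7% and 0 downstream, and 1 protein-coding gene started there against 13. Their part in the difference was not tested.

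Max had the most peaks, 20 upstream and 25 downstream. Its run with the most peaks comprised 14 peaks in 63469 bp, from 45331 to 108315 bp downstream, with widths of 177 to 866 bp. These lay in Fntb, which encodes a subunit of the protein farnesyltransferase, and 21 of the 48 Max peaks were centred in that gene. A 1129 bp peak at an alternative Fntb start, 123995 bp downstream, held both an OCT match and an E-box. On the upstream side 17 peaks, that of the promoter included, were centred within 100 kb, among them peaks of 1167, 1148 and 1105 bp. The 1167 bp peak, the second widest of Max, held a STAT match. The widest peak was that of the promoter, and the farthest, 716 bp wide, lay 208850 bp downstream. Within 100 kb of the gene on both sides Max stood at the 94.6th percentile of all genes.

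**Figure D3:**
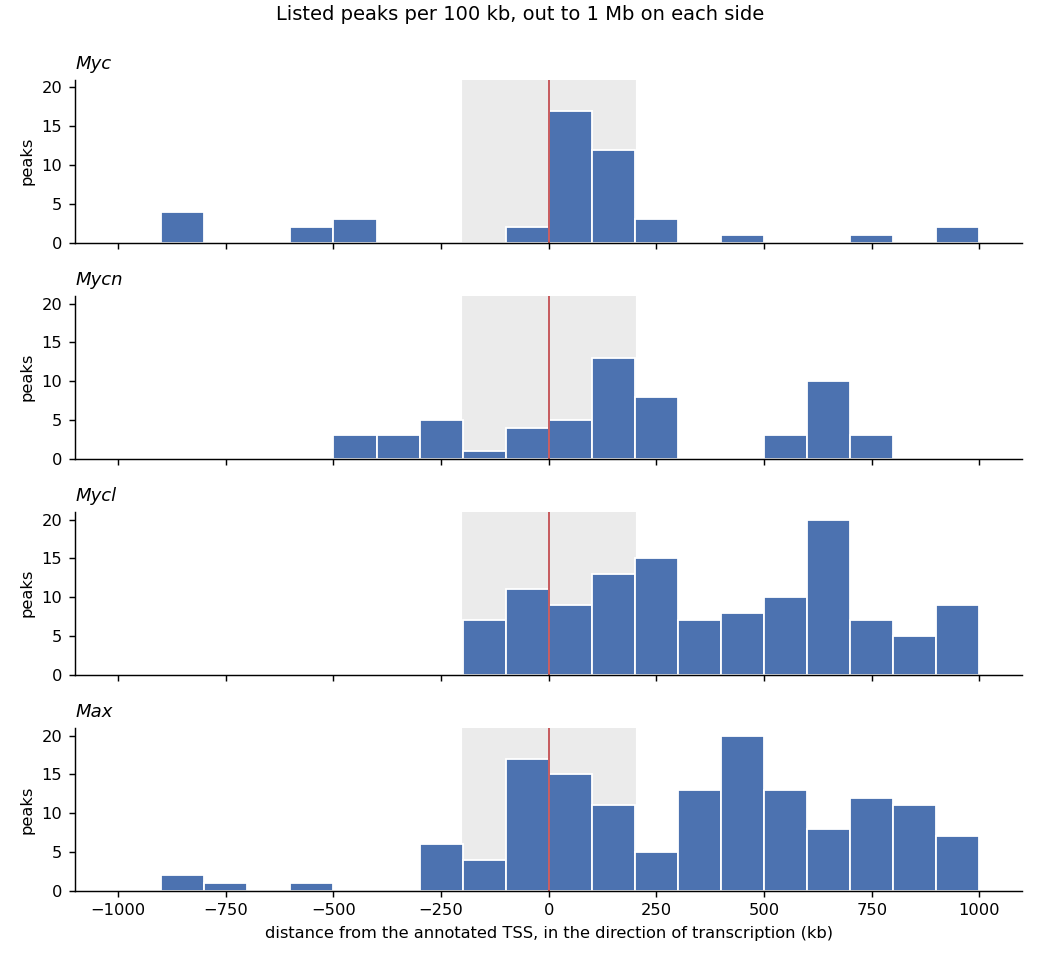
Number of listed peaks per 100 kb against distance from the annotated TSS of each gene, in kb, with upstream to the left and the 200 kb on each side shaded. Myc had 17 and 12 peaks in the first 2 bins downstream and 2 and 0 in the first 2 upstream, while the upstream bins of Mycl beyond 200 kb are empty. Peaks are placed by their centre, so the peak over the Myc TSS counts as upstream and peaks inside the gene as downstream.

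Over the family, 34 of 144 peaks (23.6%, interval 17.4 to 31.2) were promoter-proximal, close to the 25.1% of all listed peaks. Of the 144, 6 lay at the promoter of a member, 14 at that of another protein-coding gene, 14 at a non-coding transcript start only and 110 were distal. Distal peaks were narrower, with a median of 362 bp against 890.5 bp for proximal ones, and the same held for the whole list (352 and 815 bp). Of the distal peaks, 56 were intergenic and 45 intronic by their centre. Peaks under 300 bp made up 30.6% of the family and 35.8% of the list. Peaks with at least 50% of bases soft-masked made up 4.17% of the family, or 6 peaks, against 11.3% of the list.

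Consensus motifs were searched on both strands of each peak, and the share of all 102373 peaks with a match stands beside each count. The motif bound by OCT4 with SOX2 (OCT4::SOX2, up to 2 mismatches) was matched in 2 family peaks (1.39%, interval 0.382 to 4.92), against 0.677% of all peaks. The spelling of this consensus was settled after a first spelling had been searched and had matched 0 family peaks. In all, 8 spellings were tried, 3 matched no family peak and the most was 5, so the 2 matches depend on this choice. The spellings also differed in the share of all listed peaks that they matched, from 0.243% to 1.31%. The spelling with the most family peaks had the highest share. The octamer bound by OCT4 alone (OCT, ATGCAAAT), whose reverse complement forms part of OCT4::SOX2, was found in 3 family peaks (2.08%) against 2.56% of all peaks, and 1 of the 3 is the same site as an OCT4::SOX2 match. SOX (CCATTGT or CCTTTGT) was matched in 34 peaks (23.6%) against 21.3%. In Myc 11 of 32 peaks held it, in Mycn 6, in Mycl 9 and in Max 8.

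The E-box, to which the proteins of this family bind, occurred in 16 family peaks (11.1%, interval 6.96 to 17.3), against 10.4% of all peaks. These were 2 peaks of Myc, 3 of Mycn, 7 of Mycl and 4 of Max. KLF, a CACC-type motif, was matched in 15 peaks (10.4%) against 8.72%, and TCF/LEF (ATCAAAG), bound by the effectors of WNT signalling, in 14 (9.72%) against 7.89%. STAT (TTCCNGGAA), bound by the effector of LIF, was found in 6 (4.17%, interval 1.92 to 8.79) against 2.17%, and E2F (TTTCCCGC or TTTGGCGC) in 3 (2.08%) against 2.02%. Lower shares than in the whole list were found for the motif of the orphan receptor ESRRB (TCAAGGTCA), with 1 peak (0.694%, interval 0.123 to 3.83) against 2.82%, and for CTCF (up to 1 mismatch), with 14 peaks (9.72%, interval 5.88 to 15.7) against 13.0%. For each of the 10 motifs the family interval included the share of the list. A match is a stretch of letters and does not show that the protein binds there.

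**Figure D4:**
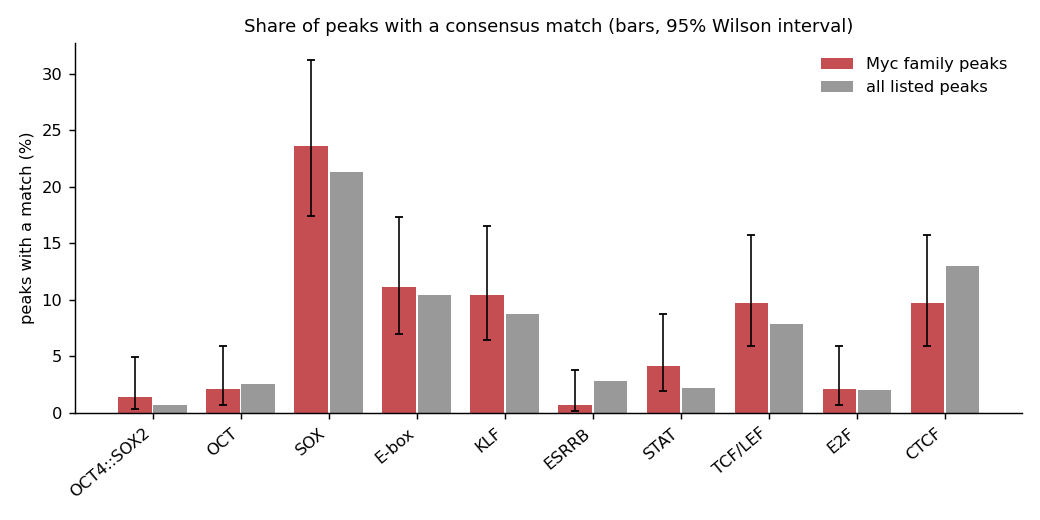
Percent of peaks with at least 1 consensus match, for the 144 Myc family peaks (red, with the 95% Wilson interval) and for all 102373 listed peaks (grey). The grey bar lies within the interval for each of the 10 motifs, from ESRRB (0.694% against 2.82%) to SOX (23.6% against 21.3%).

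Matches were then counted over the whole 4 windows, of which peaks hold 4.73% of the bases. For CTCF 35.0% of the 40 matches lay inside a peak, for KLF 30.6% of 49, for E2F 26.7% of 15 and for STAT 11.5% of 52. For E-boxes the share was 8.96% of 201, for OCT4::SOX2 7.14% of 28, for SOX 6.5% of 646, for TCF/LEF 5.44% of 294, for OCT 2.94% of 102 and for ESRRB 1.75% of 57. Over the whole of chromosomes 4, 12 and 15, where peaks hold 2.26% of bases, the shares were 21.3% for CTCF, 18.3% for KLF, 11.3% for E2F, 3.7% for STAT, 4.81% for E-boxes, 1.63% for OCT4::SOX2, 2.64% for SOX, 1.62% for TCF/LEF, 1.24% for OCT and 5.44% for ESRRB. ESRRB, with only 1 match inside a peak, was the motif with a lower share in the windows than on the chromosomes. The other 9 had a higher one, and the share of bases in peaks was higher too. The shares were not set against the share of bases in peaks, so they do not set ESRRB apart. Most matches thus lay outside any listed peak in the windows as on the chromosomes.

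The other genes of the MAX network all had a listed promoter peak: 9 of 9 had a peak at most 1000 bp from a protein-coding TSS, as did 4 of 4 members, against 69.1% of protein-coding genes. These are Mxd1, Mxi1, Mxd3, Mxd4, Mnt and Mga, whose proteins pair with MAX, and Mlx, Mlxip and Mlxipl, of a parallel branch with MLX as the common partner. Their counts within 200000 bp had a median of 44, from 14 for Mxd4 to 61 for Mlxipl (94.0th percentile), a glucose-responsive factor also known as ChREBP. Of these promoter peaks the widest was 1979 bp, at Mlxipl. Both Mxi1 and Mnt had 3 promoter peaks.

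Genes whose peaks were laid out most like those of each member were found by the Euclidean distance between counts in 10 bins of 40 kb around the TSS, among genes on other chromosomes. For Myc these were Zfp936 (distance 3.0), Adamts8 (3.61) and Ppp2cb (3.61), against a median distance of 12.9 over 21153 genes. For Mycn they were Ppm1f (2.24), Zfp773 (3.0) and Tbpl1 (3.16), against a median of 9.7. Mycl was most alike to Gsx1 (3.16), Iqck (3.32) and Arl6ip5 (3.46), with a median of 10.1, and Max to Sf3b4 (3.46), Sv2a (3.87) and Zwilch (4.0), with a median of 12.7. The smallest of so many distances lie below the median by construction, so the medians only give the scale. Raw counts were compared, so the total number of peaks also weighs in the distance. Sf3b4 and Sv2a lie on the same chromosome, and whether they share peaks was not checked.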

How the data were processed

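ATAC-seq of 20 libraries in 10 groups of 2 replicates was described by the labels. The authors aligned reads with STAR 2.6.1c to GRCm38, discarded duplicate reads using Picard, left out contigs other than the autosomes and sex chromosomes, and called peaks on read pairs with MACS2 2.1.1.20160309. BEDTools then joined the peaks of the dox-treated libraries. The deposited file holds 3 columns, which give chromosome and boundaries of every merged region, and no count, signal or score. Depth is unknown. The methods name a removal of peaks over 5000 bp, but 7 such peaks are listed. Removal of input and blacklisted regions could not be tested, and it is not known whether any merged peak is missing from the list used here.

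Starts were converted to positions counted from 1, 0 peaks lay past a chromosome end, and genes and TSS were those of GENCODE M21. The genome was RefSeq GRCm38.p6. The sequence upstream of Mycl is not reported here. Sequences were read with pysam 0.24.0, tables handled with pandas 2.3.3 and numpy 2.4.6 in Python 3.11.15, and plots drawn with matplotlib 3.10.9. The motif search was tested on simulated data, where 2000 of 2000 planted matches were found. The planted matches followed the same consensus forms and mismatches, so the test checks the code and does not measure false matches.

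No statistical test was possible, and none was made. The genes, motif and gene lists were chosen with earlier results of these data known. The OCT4::SOX2 spelling was the 1 of 8 tried whose number of distal peaks in the whole list, 561, equalled an earlier result of these data. Peaks named were those at the promoters of the members and within them, the 3 widest, the nearest and the farthest of each member, peaks with an OCT4::SOX2 or OCT match, and the run with most peaks. Genes named were the members, the MAX network, Pvt1, protein-coding genes at or in such peaks and the 3 genes most alike. The Gm genes, Platr19, the peaks upstream of Mycn and the peaks named for E-box, STAT or TCF/LEF matches were named after their values were seen. Alternatives were peak width, joining of peaks, window, TSS set, the gene set compared and motif settings.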

Additional observations from a re-analysis of the deposited data

How the results depend on the processing

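Of 98 alternatives computed, 43 stayed within range and 55 moved the value. The range was wide for counts and narrow for percentiles, so a value within range is not an unchanged one. With peaks of at least 300 bp the family fell from 144 to 100 peaks and Myc from 32 to 22, both within range. A percentile of Myc of 56.4 in place of 55.1 counted as moved. The values were counts and shares of 1 list, so moves show the dependence on definitions, not on replicates, and the cause of each move was not tested.

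No paired analysis was possible because the merged list carries no value per replicate, and leaving out a replicate was not possible for the same reason.

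With windows of 100000 bp in place of 200000 bp the family had 86 peaks, Myc 20, Mycn 10 and Mycl 20, and with 500000 bp the family had 245, Mycn 42, Mycl 70 and Max 95. With peaks of at least 300 bp Mycl had 26. The percentile of Myc was 57.0 with peaks of at least 300 bp, 56.4 with peaks at most 100 bp apart joined, 60.6 with 100000 bp, 26.2 with 500000 bp, 58.7 with distance from the TSS, 63.7 with distal peaks only and 89.5 among genes with a like number of neighbours. In the same order that of Mycn was 52.1, 39.8, 31.3, 29.7, 43.9, 44.3 and 80.0. For Mycl it was 66.4 with the wider peaks, 60.6 and 55.8 with the 2 windows, 73.4 from the TSS, 77.9 with distal peaks and 68.7 among genes with a like number of neighbours. For Max it was 77.8, 79.0, 94.6, 76.6, 83.2, 92.2 and 91.3. Thus Myc fell below the median gene with the widest window.

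Chosen after seeing the data, the upstream count of Myc was 4 with 500000 bp, and its downstream count was 19 with peaks of at least 300 bp and 17 with 100000 bp. The upstream count stayed 1 with each other alternative.

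The promoter-proximal share of the family was 13.9% with TSS of protein-coding transcripts only. The share of all listed peaks under that definition is not given here. The 25.1% above is for TSS of any transcript and is not comparable with it. With matches limited to the central 200 bp of each peak, family peaks numbered 1 for OCT (0.694%, against 1.13% of all peaks), 17 for SOX (11.8%, 10.8%), 8 for the E-box (5.56%, 3.96%), 8 for KLF (5.56%, 4.19%), 0 for ESRRB (1.35% of all), 3 for STAT (2.08%, 0.86%), 7 for TCF/LEF (4.86%, 3.38%), 0 for E2F (0.6% of all) and 6 for CTCF (4.17%, 8.02%). OCT4::SOX2 was matched in 0 peaks with up to 1 mismatch (0.0537% of all) and in 11 with up to 3 (7.64%, 5.1%). Of the 7 other spellings of this consensus, added after the first search, 3 gave 0 peaks (0.243%, 0.395% and 0.393% of all peaks). A further 2 gave 2 (0.501% and 0.32% of all), and the remaining ones 3 (0.796%) and 5 (1.31%).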
